A study of Mus musculus with 2 samples.

Results

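Transcript counts of 8 genes of the naive pluripotent state, Klf2, Klf4, Klf5, Esrrb, Tfcp2l1, Nr0b1, Zfp42 and Dppa5a, were followed across single mouse embryonic stem cells. The genes were taken by symbol, and all 8 were among the 55415 features of the deposited tables. The cells came from an embryonic stem cell line that carried GFP under the promoter of the endogenous retrovirus MERVL, and the histone fusion H2B-mIFP, by which cells can be followed. According to the labels, 1 library holds its GFP positive and 1 its GFP negative cells (205 and 0.454 GFP CPM, that is, GFP molecule counts scaled to 1000000 per library). Both libraries share the reporter and the histone fusion, and whether the line is a single clone, its culture medium and how the cells were separated are not given in the sources used here. After filtering, the positive library held 4596 cells with a median of 29554.5 UMIs (molecule counts) and the negative library 3832 cells with a median of 39099.5. Because each reporter state has a single library, and cells of 1 library are not replicates, differences between conditions could not be tested. The ranges given in brackets are 95% intervals for counting error alone.

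Naive pluripotency is the state of the early epiblast before implantation, and in culture it is held by a network of transcription factors downstream of LIF, Stat3 and Wnt signals. Klf2, Klf4 and Klf5 are zinc finger factors of the Krüppel-like family that sustain self-renewal with overlapping functions. Esrrb and Nr0b1 (Dax1) are orphan nuclear receptors, and Tfcp2l1 is a transcription factor downstream of LIF and Stat3. Zfp42 (Rex1) is a zinc finger protein widely used as a marker of the naive state, and Dppa5a encodes an RNA-binding protein abundant in embryonic stem cells. A small share of such cells pass through a state resembling the 2-cell embryo (2C-like), in which MERVL and the Zscan4 genes are transcribed.

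The 8 genes differed in the level of the Zscan4 family at which their transcripts became fewer. Early, late and decline refer below to this level and not to time, which was not measured. The UMIs of Zscan4a to Zscan4f were added in each cell after all cells had been thinned to 10000 UMIs, and the 4402 positive-library cells with that many UMIs were placed in 6 classes. In the order in which each gene first reached 75% of its level in cells with 0 Zscan4 UMIs, Zfp42, Esrrb, Klf4, Tfcp2l1 and Klf5 came at a Zscan4 level of 1.87 to 2.40 UMIs per 10000. Nr0b1 followed at 3.42, and Klf2 and Dppa5a came last at 9.43 and 10.6. All 8 were lower in the class with 20 or more Zscan4 UMIs, from 29.0% of the class with 0 for Zfp42 to 71.4% for Klf5.

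The promoters of Zfp42, the earliest of these genes to reach 75%, of Klf4, whose level followed that of Zfp42 most closely from cell to cell, and of Klf2, which was late, are shown to put the members beside the sites of their own network. They are the 250 bases before the annotated start, 5′ to 3′ on the strand of the gene, from RefSeq on GRCm38.p6. Capitals mark the letters GGGNGNGG (Krüppel-like factors), the octamer ATGCAAAT bound by Pou5f1, and the Tfcp2l1 motif, which is CCNG repeated after 6 bases of any kind, each on either strand. Overlapping matches run together.
Zfp42 (chr8:43307010-43307259, minus strand): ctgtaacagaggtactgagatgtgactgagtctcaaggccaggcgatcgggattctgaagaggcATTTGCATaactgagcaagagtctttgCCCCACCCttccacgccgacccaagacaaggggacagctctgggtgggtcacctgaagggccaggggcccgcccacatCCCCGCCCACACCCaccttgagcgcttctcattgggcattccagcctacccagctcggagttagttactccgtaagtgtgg
Klf4 (chr4:55532476-55532725, minus strand): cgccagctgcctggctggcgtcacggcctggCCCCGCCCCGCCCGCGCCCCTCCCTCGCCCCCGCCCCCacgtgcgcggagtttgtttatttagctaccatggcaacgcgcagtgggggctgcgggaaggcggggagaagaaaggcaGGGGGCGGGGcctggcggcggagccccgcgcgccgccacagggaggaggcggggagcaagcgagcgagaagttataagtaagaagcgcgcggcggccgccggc
Klf2 (chr8:72318812-72319061, plus strand): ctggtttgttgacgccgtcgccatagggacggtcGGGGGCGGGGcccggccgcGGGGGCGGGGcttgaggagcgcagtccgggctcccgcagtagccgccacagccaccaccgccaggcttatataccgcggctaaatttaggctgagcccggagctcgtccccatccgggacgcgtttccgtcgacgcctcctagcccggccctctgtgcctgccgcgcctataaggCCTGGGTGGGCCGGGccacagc

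The Zfp42 window held 3 matches to the Krüppel-like letters and 1 octamer, which reads ATTTGCAT on the strand shown and begins 186 bases before the start. The Klf4 window held 9 Krüppel-like matches, and the Klf2 window held 4 of these and 2 overlapping Tfcp2l1 matches. Among 32851 RefSeq promoters of the same length, 45.9% held the Krüppel-like letters, 24.9% the Tfcp2l1 letters and 1.60% the octamer. A match is a run of letters and not a bound site. Of the 8 genes, 6 had a promoter entry; Klf5 and Dppa5a had none. The Zscan4 letters TGCACAC, found in 3.67% of promoters, occurred in 1 of the 7 windows of the members, the more upstream of the windows of Esrrb. AAGGTCA (Esrrb), CATTGTT (Sox factors) and TTCCNGGAA (Stat3) were searched as well and matched in none of the 7. They were in 4.08%, 3.29% and 0.913% of all promoters.

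The genes lie on 7 chromosomes of GRCm38 (mm10) by the GENCODE M21 annotation, and all are protein-coding. Klf2 lies at chr8:72319033-72321656 and Zfp42 at chr8:43295063-43306980, on opposite strands. Klf4 lies at chr4:55527143-55532466, Klf5 at chr14:99298691-99315036 and Esrrb at chr12:86361117-86521628. Tfcp2l1 lies at chr1:118627945-118685168, Nr0b1 at chrX:86191764-86195947 and Dppa5a at chr9:78367052-78368177. Of the 8, Tfcp2l1 was overlapped by other annotated genes, the 3 predicted genes Gm22094, Gm28882 and Gm23497 with 35 UMIs over both libraries. Dppa5a has the related copies Dppa5b and Dppa5c, which had 0 UMIs in both libraries; reads that fit several copies may have been assigned to Dppa5a or left out, which the files do not show.

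Between the libraries none of the 8 genes differed by 2-fold. Zfp42 was at 903 CPM (898 to 908) among positive and 1237 CPM (1231 to 1242) among negative cells, a ratio of 0.730 (0.725 to 0.736). Klf4 had 310 against 362 CPM and Klf2 452 against 517 CPM. Tfcp2l1 had 92.4 against 113 CPM, Nr0b1 72.3 against 92.9 CPM and Esrrb 41.7 against 53.3 CPM, with ratios of 0.778 to 0.816. The other two genes were higher in the positive library, Klf5 with 354 against 318 CPM and Dppa5a with 11499 against 10359 CPM. No member reached a 2-fold difference, which 8.01% of 8042 genes did in either direction and 0.995% did as the lower side. At any ratio 6 of the 8 were lower in the positive library, as were 36.5% of all genes. The median log2 ratio of CPM + 1 was -0.26 over the 8 members and 0.14 over all genes tested. Relative to that general shift, Klf5 (0.16) and Dppa5a (0.15) lay at the median. Scaling by trimmed means (TMM) moved the median of all genes to -0.14, and Klf5 and Dppa5a moved with it to -0.14 each. Under that scaling the median of the members was -0.55 and Zfp42, at -0.45 in the main scaling, was at -0.75. In the labels the batch field repeats the reporter state, so the effects of batch and reporter cannot be told apart.

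Cell-to-cell variation was described on cells thinned to 10000 UMIs, where depth is equal. In the negative library, with 3824 such cells, Zfp42 had a median of 12 UMIs, with 4 at the 10th and 21 at the 90th percentile. Its variance was 3.37 times its mean (the Fano factor, which is 1 for counting noise alone). In the positive library, with 4402 cells, the median was 6 and the same percentiles were 1 and 19, with a Fano factor of 7.28. The libraries thus lay close together at the 90th percentile and apart at the median and below. Cells without a Zfp42 UMI were 1.70% (1.31 to 2.16) of the negative and 7.84% (7.06 to 8.67) of the positive library. For comparison, 17.8% of endoderm-high cells of the negative library, defined further on, had none at a median depth of 39462 UMIs, against 39129 for the library.

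Klf4 went from a median of 3 UMIs and 13.0% of cells at 0 (11.9 to 14.1) in the negative library to 2 UMIs and 25% at 0 (23.7 to 26.3) in the positive library. Its Fano factor was 2.73 and 4.55. Klf2 had a median of 4 and 3 UMIs, with 9.91% and 17.9% of cells at 0 and Fano factors of 3.78 and 5.21. Klf5 had a median of 3 and 2 UMIs, with 12.6% and 16.4% at 0 and Fano factors of 2.56 and 3.63. Each of these 3 Krüppel-like genes was thus spread more widely over positive-library cells. Dppa5a was present in every cell of both libraries at this depth. Its 10th, 50th and 90th percentiles were 63, 99 and 148.7 UMIs in the negative and 46, 102 and 191 UMIs in the positive library.

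The other three genes were sparse. Esrrb had a mean of 0.543 and 0.395 thinned UMIs in the negative and positive library, and 59.6% and 69.8% of cells at 0. Counting noise at those means would leave 58.1% and 67.3% at 0, close to what was seen, but so few UMIs show little of a spread. With counting noise taken out, the coefficient of variation (standard deviation over mean) of Esrrb was 0.440 and 0.704. That of Zfp42 was 0.439 and 0.861. Nr0b1 was more uneven: 50.1% and 64.3% of cells had none, where counting noise at its means would leave 40.1% and 51.4%. Tfcp2l1 lay between, with 38.1% and 51.2% at 0 against 32.0% and 41.6%.

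Set against a trend of the squared coefficient of variation on the mean, fitted over all genes with at least 0.1 thinned UMI per cell, 5 of the 8 genes lay at 2 times the trend or more in the negative library and 5 in the positive library. Of all genes fitted, 1.51% and 5.41% did. All 8 lay above the trend at any ratio in both libraries, as did 48.7% and 49.7% of genes. The 5 were Klf2, Klf4, Klf5, Zfp42 and Dppa5a in both cases, with Dppa5a at 4.77 and 7.78 times the trend. Counting noise is a larger part of the trend at low means, so sparse genes reach this limit less easily. With counting noise taken out, the coefficient of variation gave another order. It was highest of the 8 for Nr0b1 (0.917 and 1.32) and lowest for Dppa5a (0.334 and 0.535). At 5000 UMIs per cell, 2 of the 5 (Klf2 and Dppa5a) were past that limit in the negative library, and 4 of the 5, all but Klf5, in the positive library. The spread was wide also among cells without a Zscan4 UMI, of which 8.64% were endoderm-high in the positive library. In the 1933 positive-library cells with 0 Zscan4 UMIs, Zfp42 had a Fano factor of 6.20 and 10th and 90th percentiles of 1 and 22 UMIs. There, 5 of the 8 genes reached 2 times the trend (3.77% of all genes) and all 8 were above it (50.1%). In the 236 cells with 20 or more Zscan4 UMIs, 4 reached 2 times the trend (5.99%) and 7 were above it (51.6%). Klf5 was the gene that no longer reached it, with a Fano factor of 1.52, and Esrrb the one below the trend.

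**Figure D1:**
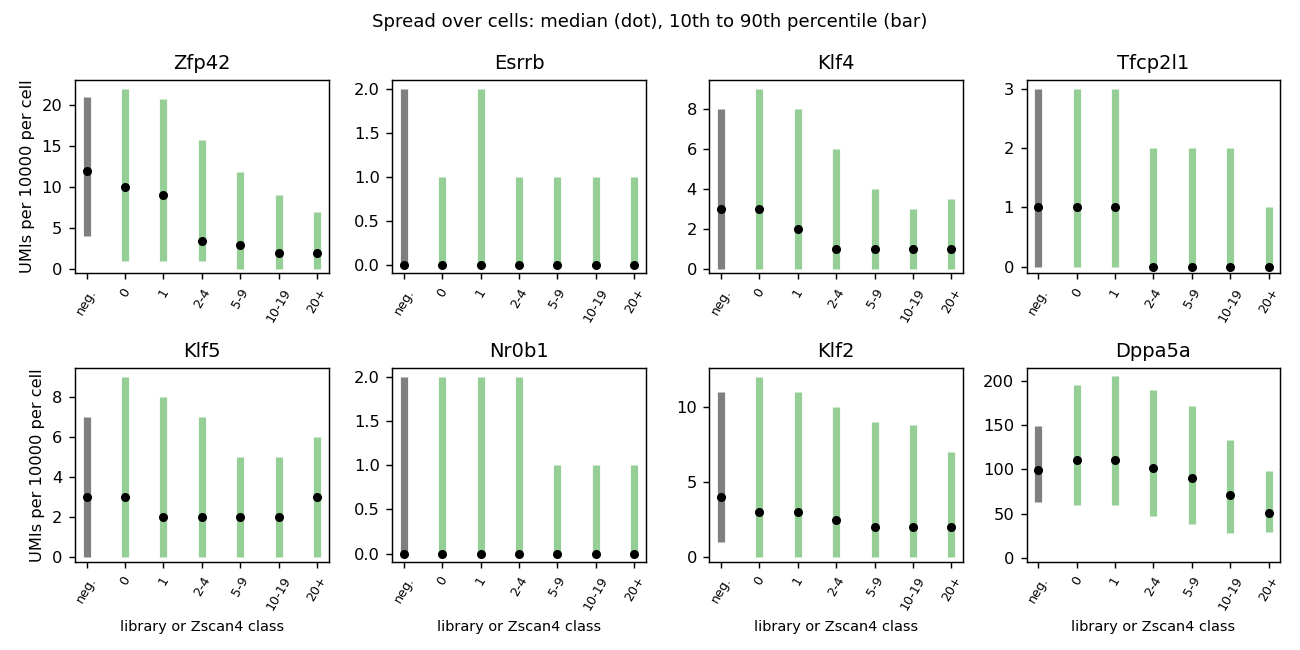
Thinned UMIs per cell (y axis, per 10000) of each gene in the negative library and in the 6 Zscan4 classes of the positive library (x axis). Dots are medians and bars run from the 10th to the 90th percentile over cells; for Zfp42 the upper end drops from 22 to 7 UMIs between the outermost classes while the median drops from 10 to 2.

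At least 1 thinned Zscan4 UMI was found in 2469 of 4402 positive-library cells, or 56.1%, and in 10 of 3824 negative-library cells, or 0.262%. The classes with 0, 1, 2 to 4, 5 to 9, 10 to 19 and 20 or more UMIs held 1933, 944, 664, 372, 253 and 236 cells. Among the 329 endoderm-high cells of the positive library, 26.1% (21.5 to 31.2) had exactly 1, against 21.1% (19.8 to 22.4) of other cells at a similar median depth. The share with at least 1 was 49.2% (43.7 to 54.8) against 56.6% (55.1 to 58.2). The share with 5 or more was 9.42% (6.49 to 13.1) against 20.4% (19.2 to 21.6). Whether the UMIs of the classes with 1 and with 2 to 4 came from the cell or from free RNA was not tested. A single UMI is not read here as expression of Zscan4.

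Several other measures changed along the same classes. Between the outermost classes median UMIs per cell went from 32916 to 18813.5, and the median mitochondrial share from 2.36% to 3.43%. Other 2C genes, summed over 19 genes such as Sp110 and Usp17la, went from 9.26 to 279 thinned UMIs per cell. The 10-gene endoderm list went from 2.58 to 0.788. Over S phase genes the mean went from 24.7 to 19.6, and over G2/M genes from 35.9 to 47.1. Beyond the alternative cell sets given with the results, the part of these measures was not tested. CPM describes the share of a cell's transcripts, so the UMIs counted per cell moved more: Zfp42 went from 36.6 to 6.30 per cell.

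Zfp42 had 1089 CPM (1081 to 1097) in the class with 0, then 1009, 674, 476 and 380, and 316 CPM (300 to 332) in the class with 20 or more. Of its whole decline 79.3% of its whole decline was reached by the class with 5 to 9. Its ratio between the outermost classes was 0.290 (0.275 to 0.305), lower than all but 0.939% of genes tested. In the class with 2 to 4 Zscan4 UMIs, 41.9% of cells (38.1 to 45.7) had at most 2 Zfp42 UMIs, while 23.9% (20.7 to 27.4) had 10 or more, the median of the class with 0. In the class with 0 these shares were 20.6% and 52.3%, and in the class with 20 or more they were 51.3% and 4.24%. These limits of 2 and 10 UMIs were chosen after the data were seen.

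Klf4 was lower along the same classes and then stayed level. It had 368 CPM (363 to 373) with 0 Zscan4 UMIs, 334 with 1 and 246 with 2 to 4. At 5 to 9 it had 166 CPM (158 to 174), or 45% of the start, and it stayed at 161 (151 to 171) and 165 (154 to 177) in the classes above. Tfcp2l1 had 108 CPM, then 98.2, 77.0, 52.9, 55.2 and 44.0 (38.2 to 50.4). Esrrb had 48.7 CPM, then 45.8, 31.4, 26.1, 24.6 and 22.7 (18.6 to 27.5). For Tfcp2l1 86.0% and for Esrrb 87.1% of the whole decline was reached by 5 to 9 UMIs. The upper 3 classes of Esrrb cannot be ordered, because their intervals overlap.

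Klf5 turned. It had 401 CPM (397 to 406) with 0 Zscan4 UMIs, 288 (281 to 296) with 2 to 4 and a lowest value of 246 (236 to 256) with 5 to 9. Among cells with 20 or more it stood at 287 CPM (272 to 302), above the 2 classes before it. Cells without a Klf5 UMI were 16.3% (14.7 to 18.1) in the class with 0 and 11% (7.32 to 15.7) in the class with 20 or more. Cells with many Klf5 UMIs were thus the ones that became scarcer, the 90th percentile being 9 and 6. Klf5 was also the gene whose placing depended most on the reference: against negative-library cells without Zscan4 it came last of the 8, with a log2 ratio of -0.15 in place of -0.48.

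Nr0b1 was later. It had 81.0 CPM (78.8 to 83.2) with 0 and 82.0 (78.9 to 85.3) with 1 Zscan4 UMI, then 63.4 and 51.9. Between the classes with 5 to 9 and 10 to 19 it went from 51.9 (47.6 to 56.5) to 29.9 CPM (25.6 to 34.6), and it had 34.4 (29.3 to 40.1) in the last class. Of the genes that crossed 50%, only Esrrb crossed at a higher Zscan4 level, 16.2 UMIs per 10000, against 9.62 for Nr0b1, 6.30 for Tfcp2l1, 5.42 for Klf4 and 4.91 for Zfp42. Esrrb stayed near 50% over 3 classes, so its crossing point is poorly placed.

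Klf2 and Dppa5a showed no plateau in the upper classes. Klf2 had 489 CPM (483 to 494), then 466, 416, 383, 349 and 316 (300 to 332), each class lower than the one before. The share of cells with no Klf2 UMI was 18.3% (16.6 to 20.1) in the class with 0 and 16.5% (12 to 21.9) in the class with 20 or more. Dppa5a had 12056 CPM with 0 and 12331 with 1 Zscan4 UMI. It then had 11500, 10210 and 8428, and 6160 CPM (6090 to 6232) with 20 or more. By the class with 5 to 9, where Klf4 had completed 99.7% of its decline, Dppa5a had completed 31.3% and Klf2 61.1%. Klf2 ended at 64.6% (61.3 to 68.1) and Dppa5a at 51.1% (50.5 to 51.7), a log2 ratio of -0.97. Over 19 alternatives that of Dppa5a ran from -1.07 among cells with relatively more G2/M than S phase UMIs, 1 of 5 settings past 2-fold, to -0.26 with other 2C genes as the axis, and it was -0.60 among cells with relatively more S phase UMIs. In that last set, with 50 cells in the highest class, Klf2 was at -0.29, against -0.63 in all cells.

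**Figure D2:**
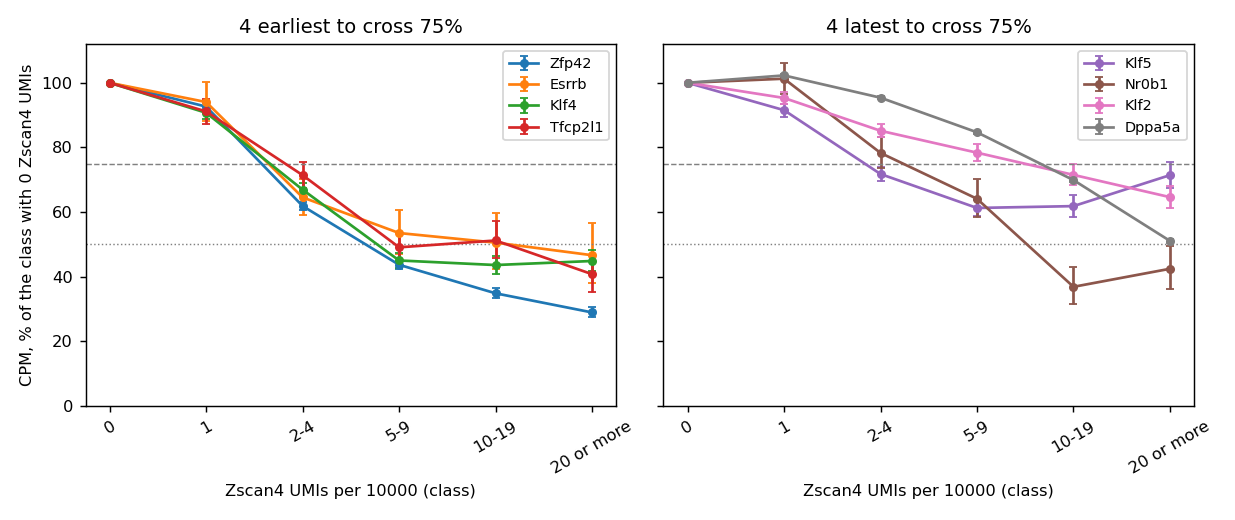
CPM of each gene as a percentage of the class with 0 Zscan4 UMIs (y axis) over the 6 Zscan4 classes of the positive library (x axis, not to scale), with 95% counting intervals. Dashed and dotted lines mark 75% and 50%; Zfp42 ends at 29.0%, Klf5 turns upward in the last class to 71.4%, and Dppa5a stays above 75% until the class with 10 to 19.

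Against the background of all genes, 5 of the 8 (Zfp42, Tfcp2l1, Nr0b1, Klf4 and Esrrb) were lower by at least 2-fold in the class with 20 or more Zscan4 UMIs, where 8.45% of 8520 genes were. Of the 19 alternatives that could alter a level, all 19 kept Zfp42 past 2-fold, 18 kept Nr0b1, 17 Tfcp2l1, 16 Klf4 and 16 Esrrb. The count was 3 among cells with relatively more G2/M than S phase UMIs, where Klf4 (-0.93), Esrrb (-0.89) and Tfcp2l1 (-0.96) missed it and Dppa5a (-1.07) passed. It was also 3 with GFP as the axis (Klf4, Klf5 and Zfp42), whose highest class held 9 cells, and 4 to 6 under the others. At any ratio all 8 were lower, as were 58.2% of genes. The median log2 ratio was -1.11 over the 8 genes and -0.15 over all genes tested. At 2 to 4 Zscan4 UMIs, 5 of the 8 were already at 75% or less, against 5.98% of 7674 genes. All 8 were at 75% or less at 10 to 19 (26.2% of genes) and at 20 or more (37.5%). Those 5 were Zfp42, Esrrb, Klf4, Tfcp2l1 and Klf5. Among the 720 genes lower by at least 2-fold, the median gene reached 75% at a Zscan4 level of 2.82, with quartiles of 2.00 and 4.21. Zfp42, at 1.87, came before the lower quartile of these genes, and Nr0b1 after their median. The median gene had 64.1% of its decline behind it at 5 to 9 UMIs, against 79.3% for Zfp42 and 62.4% for Nr0b1.

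The late end of the order held under other settings and its early end less so. Of 21 alternatives, 3 could not alter a crossing point and are not counted. Over the other 18, Zfp42 ranked first in 13 and within the first 4 in all 18. Dppa5a was at rank 7 or 8 in all 18 and Klf2 in 17. In 1 setting each, such a rank stands for a gene that did not reach 75% at all: Dppa5a with other 2C genes as the axis, Klf2 among cells with relatively more S phase UMIs and Klf5 against negative-library cells. Klf4 was among the first 4 in 15 settings, Tfcp2l1 in 15, Esrrb in 16 and Klf5 in 6. At a 90% crossing Klf4 came first and Zfp42 had rank 4. As a share of the whole decline of each gene the order was another. By 2 to 4 UMIs Zfp42 had completed 53.7% of its own decline, against 60% for Klf4 and 66.5% for Esrrb. The share of Klf5 was 98.8%, but it is measured to the last class, after the upturn of Klf5. At 5 to 9 UMIs, where Klf5 was lowest, its share was 136%. The 75% crossings of Esrrb, Klf4, Tfcp2l1 and Klf5 lay within 2.01 to 2.40 UMIs per 10000, and their order among themselves should not be read. All 8 genes were lower in the highest class under the 19 alternatives that could alter a level. Without cells that had 5 or more UMIs of the endoderm list the log2 ratios were -1.93 for Zfp42 and -0.32 for Klf5, and among cells with 20000 to 40000 UMIs they were -1.73 and -0.42.

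Zscan4 is only 1 part of the 2C programme, so cells were also divided by Zscan4 and by the 19 other 2C genes at once. This division was chosen after the data were seen. The reference was 2679 positive-library cells with 0 or 1 Zscan4 UMI and fewer than 30 thinned UMIs of the other 2C genes. In 144 cells with 5 or more Zscan4 UMIs but fewer than 30 of the others, Zfp42 was at 61.2% (59.0 to 63.4) of the reference. In 198 cells with 0 or 1 Zscan4 UMI but 30 or more of the others it was at 31.2% (29.8 to 32.7). In 717 cells with both it was at 31.0% (30.2 to 31.9). The intervals of the last 2 classes overlapped, but they did so only with all cells included. Without cells of 5 or more endoderm UMIs, Zfp42 was at 33.6% (32.0 to 35.3) with the other 2C genes alone and at 29.4% (28.6 to 30.2) with both.

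Klf4 gave 69.1%, 36.0% and 37.8% in the same 3 classes, Tfcp2l1 66.0%, 34.6% and 42.5%, and Esrrb 73.3%, 35.8% and 44.2%. Nr0b1 gave 79.8%, 40.4% and 41.6%. For Zfp42, Klf4, Esrrb, Tfcp2l1 and Nr0b1 the intervals of the 2 classes rich in other 2C genes overlapped with all cells included, and for Zfp42 alone of these 5 they no longer did without cells of 5 or more endoderm UMIs. Dppa5a was at 87.4% (86.6 to 88.2) with Zscan4 alone, 81.6% (80.9 to 82.3) with the others alone and 67.5% (67.1 to 67.9) with both. Klf2 was at 84.2%, 64.3% and 70.0%, and Klf5 at 59.3%, 57.5% and 65.2%. A 2-fold lower level was reached by 0, 5 and 5 of the 8 genes in the 3 classes, against 1.05%, 3.19% and 3.92% of all genes tested. The class with the other 2C genes alone held 13.1% endoderm-high cells, against 8.47% in the reference. With cells of 5 or more endoderm UMIs left out, the order of the last 2 classes turned for Klf2, Klf4 and Nr0b1. Klf4 was then at 38.4% with the other 2C genes alone and 36.5% with both, and Nr0b1 at 46.9% and 40%. Klf5 moved further apart, to 52.4% (48.7 to 56.3) and 72.3% (70.0 to 74.8). Klf2 was at 71.5% (68.0 to 75.2) with the other 2C genes alone and 67.3% (65.5 to 69.3) with both. The intervals of Klf2, Klf4 and Nr0b1 overlapped between these classes. Mean levels of the other 2C genes also differed, at 85.4 UMIs per cell without and 190 with Zscan4. Zscan4 was not matched either, with a mean of 8.49 UMIs per cell in the class with Zscan4 alone and 20.5 in that with both. The class with Zscan4 alone had 17.8 UMIs of the other 2C genes per cell, against 5.40 in the reference. The parts of Zscan4 and of the other 2C genes were therefore not told apart.

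**Figure D3:**
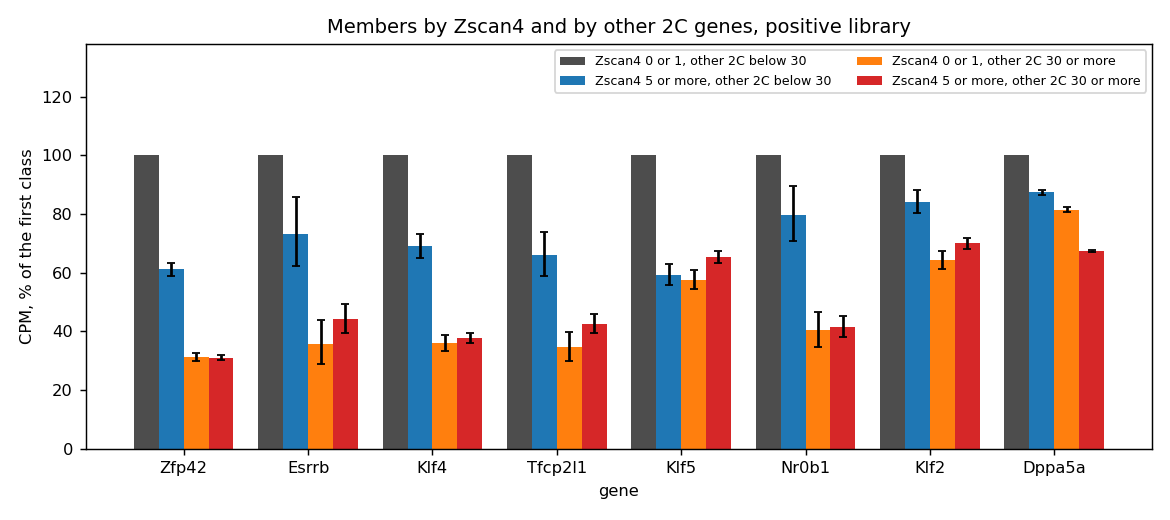
CPM of each gene as a percentage of cells low in both Zscan4 and other 2C genes (y axis), for 4 classes of positive-library cells, with 95% counting intervals except on the reference bars. The bars for other 2C genes alone and for both are close for Zfp42 with all cells included (31.2% and 31.0%), while Dppa5a is lowest with both (67.5%).

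Cells with endoderm transcripts gave another order. Endoderm-high cells had 10 or more thinned UMIs of Gata6, Gata4, Sox17, Pdgfra, Dab2 and 5 further genes of primitive endoderm, and only those with 0 Zscan4 UMIs were used. There were 167 in the positive and 174 in the negative library, set against 1094 and 2827 cells with 0 of both. All 10 list genes were detected in them. Klf2 was at 47.8 CPM (42.2 to 53.9) against 573 CPM in the positive library, or 8.33% (7.35 to 9.41), and at 17% (15.8 to 18.4) in the negative library. Klf2, late and shallow along Zscan4, was thus the lowest of the 8 here. Zfp42 was at 14.0% and 19.3%. With the cut at 5 or more endoderm UMIs, Zfp42 was lower than Klf2 in the negative library, with log2 ratios of -2.28 and -2.20.

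Klf5 was higher in endoderm-high cells, at 799 CPM (775 to 823) against 367 CPM in the positive library and 754 (734 to 775) against 294 CPM in the negative library. These are 217% (210 to 225) and 257% (250 to 264) of the cells without endoderm UMIs. Klf4 was at 28.7% and 45.2%, Nr0b1 at 22.9% and 40.9% and Esrrb at 18.1% and 45.4%. Tfcp2l1 was at 28.3% (24.3 to 32.7) and 75.6% (69.7 to 81.9). Dppa5a was at 77.3% and 84.2%. A 2-fold lower level was found for 6 of the 8 genes in the positive and 5 in the negative library, against 6.21% and 4.07% of all genes tested. The difference between the libraries has no replicate and was not tested.

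**Figure D4:**
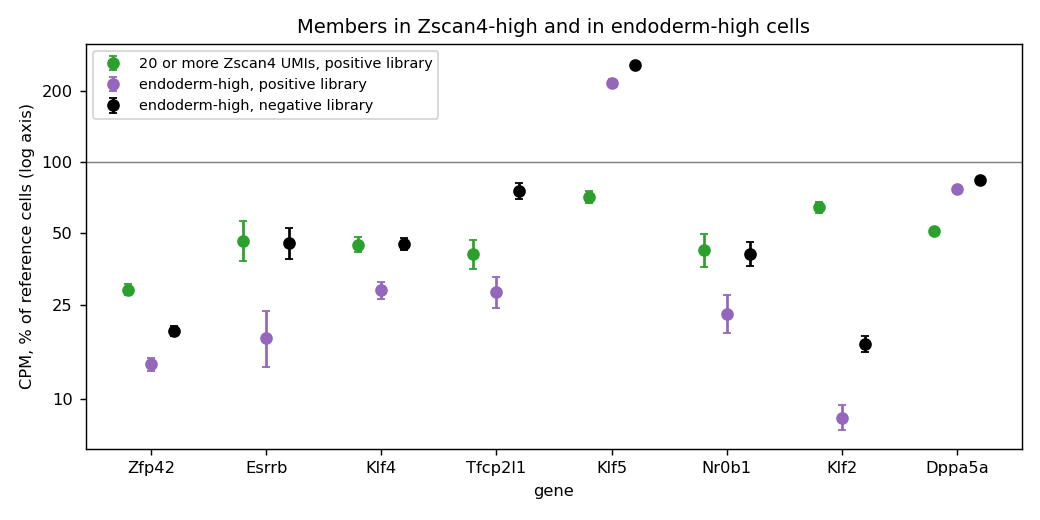
CPM of each gene as a percentage of its reference cells (y axis, log scale) in cells with 20 or more Zscan4 UMIs and in endoderm-high cells of each library, with 95% counting intervals. Klf5 is above 100% in endoderm-high cells of both libraries and at 71.4% in Zscan4-high cells, and Klf2 is at 8.33% and 17% against 64.6%.

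From cell to cell the genes varied together weakly. Pearson r was computed on log2(thinned UMIs + 1) across cells of 1 library, which share that library and hold few UMIs, so the values are lowered by sampling. Over the 28 pairs the median r was 0.09 in 3824 negative-library cells and 0.20 in 4402 positive-library cells. The highest was Zfp42 with Klf4, at 0.33 and 0.50, followed by Zfp42 with Klf2, at 0.30 and 0.40. The lowest was Klf2 with Klf5, at -0.09 and -0.10. The higher values of the positive library were nearly as high in its cells without Zscan4 UMIs, with a median of 0.17 and 0.48 for Zfp42 with Klf4. These cells were mixed, 8.64% of them being endoderm-high. Within them, r with the summed other 2C genes was -0.32 for Zfp42 and -0.24 for Klf4. The share of cells with neither Zfp42 nor Klf4 was 0.837% in the negative library, 2.69% in the class with 0 Zscan4 UMIs and 8.87% (6.19 to 12.2) in the class with 5 to 9. It was 7.91% (4.90 to 11.9) at 10 to 19 and 5.51% (2.97 to 9.24) at 20 or more, with overlapping intervals.

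**Figure D5:**
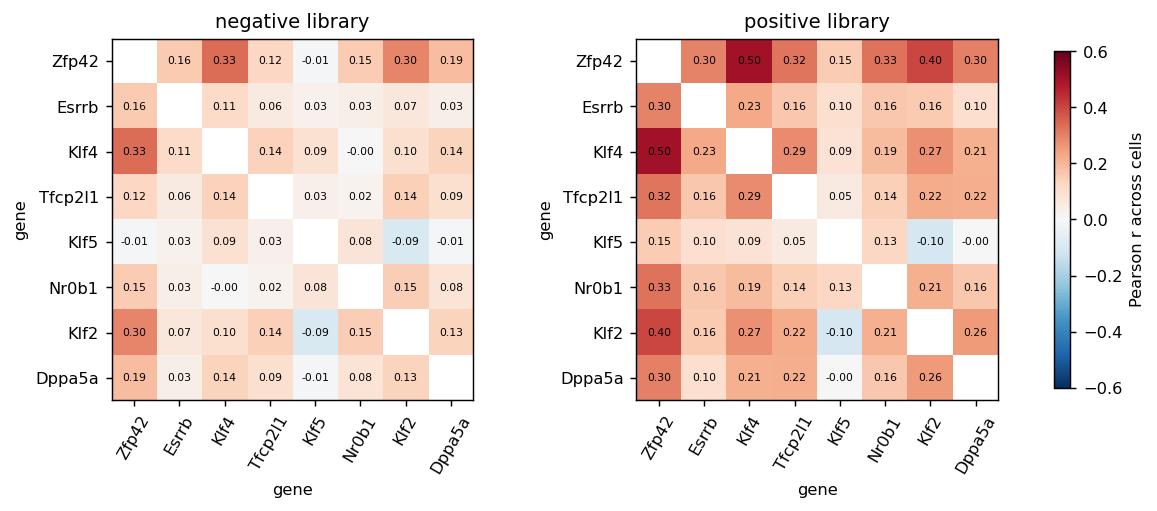
Pearson r across cells for each pair of genes, on log2(thinned UMIs + 1), in the negative library (left) and the positive library (right); colours run from -0.6 to 0.6. Zfp42 with Klf4 has the highest r in both libraries (0.33 and 0.50), and Klf2 with Klf5 lies below 0 in both (-0.09 and -0.10).

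Genes outside the 8 were ranked by r with the summed UMIs of the 8, among genes with at least 0.5 thinned UMI per cell. In the positive library the first were Ooep (0.53), Cox5a (0.45) and Tmsb10 (0.44), of 3018 genes. In the negative library they were Ooep (0.36), Jam2 (0.33) and Nanog (0.27), of 2742 genes. Dppa5a gave 84.2% and 79.3% of the summed UMIs, and Ooep lies 7931 bases from Dppa5a on the same strand, at chr9:78376109-78378725. Without Dppa5a the first were Sox2 (0.62), Tdgf1 (0.51) and Nanog (0.50) in the positive library. In the negative library they were Chchd10 (0.37), Sox2 (0.36) and Jam2 (0.36).

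Of 30 other genes of the naive network, 28 were measured between the outermost Zscan4 classes, 12 being lower by at least 2-fold and 3 higher. Of all genes tested 8.45% were lower and 11.7% higher by that much, so the count of higher genes was near the background. Tet2, which encodes a 5-methylcytosine dioxygenase, had 88.7 CPM in the class with 0 and 21.5 in the class with 20 or more. Sox2, a core factor that binds with Pou5f1, had 549 and 141 CPM. It reached 75% at a Zscan4 level of 1.95, close to Zfp42, and Tcl1, a coactivator of Akt, at 1.92. Tbx3, a T-box factor of the naive network, was later, at 6.33. Utf1 (1.42), Gdf3 (1.48), Tet1 (2.61), Fgf4 (4.31), Lin28a (2.65), Tdgf1 (3.64), Tcf7l1 (2.85) and Zfp57 (2.60) completed the 12, with the Zscan4 level at 75% in brackets. The LIF pathway genes Stat3 (25.9 and 14.9 CPM), Lifr (20.4 and 12.7 CPM), Jak1 (40.1 and 58.4 CPM) and Socs3 (52.0 and 48.2 CPM) did not reach 2-fold. Il6st, the co-receptor of Lifr, was at 9.89 and 2.97 CPM, which is lower by more than 2-fold but under the limit of 10 CPM, so it is not among the 28. The 3 higher genes were Dppa3 (37.1 and 136 CPM), Dppa2 (181 and 483 CPM) and Fbxo15 (575 and 1452 CPM). Of 14 further Krüppel-like genes 7 were measured. Klf13, at 41.9 and 19.5 CPM, was lower by at least 2-fold, and the other 6 (Klf3, Klf6, Klf7, Klf9, Klf10 and Klf11) were within 2-fold. The median log2 ratio of the 7 was 0.17, beside -1.15 for Klf4, -0.63 for Klf2 and -0.48 for Klf5.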

How the data were processed

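For each library the authors deposited 1 sparse matrix of raw counts, whole numbers by gene and barcode, taken here to be UMIs. The library source is labelled as single cell, but the extraction text describes kits for bulk RNA, so that reading is inferred and is not stated by a label. Per the submitters' processing notes, FastQC 0.11.2, Trim Galore 0.6.4, STAR 2.7.6a and mm10 were used; their roles, the annotation, the cell calling and the counting are not given in the sources used here. The libraries shared 3 barcodes.

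A cell was kept if it had 1000 UMIs or more, 500 genes or more and no more than 20% mitochondrial UMIs, which removed 7 positive-library and 0 negative-library cells. Doublets were not removed; an alternative left out cells above 2 times the median UMIs. For classes and spreads each cell was subsampled to 10000 UMIs, so that 194 and 8 shallower cells dropped out. Levels used all UMIs, summed per class, as CPM. Fold changes are on the log2(CPM + 1) scale over genes with at least 10 CPM in either class and 50 UMIs in all. Crossings were interpolated linearly on log2(Zscan4 UMIs + 1) between class means. Intervals are exact Poisson, Clopper-Pearson or conditional intervals at 95%. PCR and sampling beyond UMI counting are not covered.

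The members and lists were chosen with earlier results of these data known. Named genes are the 8 members, members of the lists past 2-fold with counts for the rest, and the 3 genes most like the members in each library; Stat3, Lifr, Il6st, Jak1, Socs3, the other Krüppel-like genes and the ranking without Dppa5a were added after their values were seen. On simulated cells with 30502 genes, for the class with 20 or more against that with 0 Zscan4 UMIs, 100% of genes set to a fold of 0.25 and 75% of those set to 0.4 were called, with 0 of 7700 unchanged genes called. Nearly all unchanged genes had counting noise alone, with no endoderm or cell cycle shift between classes. The 0 calls among them therefore say nothing about such shifts in the real cells. The software was edgeR 4.0.16 in R 4.3.3, for TMM factors only, and statsmodels 0.14.6, pandas 2.3.3, scipy 1.17.1 and numpy 2.4.6 in Python 3.11.15.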

Additional observations from a re-analysis of the deposited data

How the results depend on the processing

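No paired analysis was possible because a single library stands for each reporter state, which also leaves no replicate to omit. Depth limits Esrrb, Nr0b1 and Tfcp2l1, which had about 1 thinned UMI per cell or fewer. All 8 genes were lower in the highest Zscan4 class under the 19 alternatives that could alter a level. Of these, 18 gave values of single genes (the division into 8 bins of equal cell number was used for ranks), and of their 144 values 98 stayed within the counting interval and 46 moved. The median log2 ratio of the members, -1.11, was -0.77 with GFP as the axis, whose highest class held 9 cells, and -0.94 among cells with relatively more G2/M than S phase UMIs. The share of all genes lower by 2-fold, 8.45%, was 4.21% without a filter on low values, 4.27% with other 2C genes as the axis and 20.2% with GFP as the axis. Of the 4 genes earliest to 75%, 3 were still among the first 4 without a cell filter, with at least 20000 UMIs and at most 5% mitochondrial UMIs, against negative-library cells, in either cell cycle set and at a 90% crossing, and 2 with other 2C genes as the axis, where the class with 0 held 98 cells. Removing the cell filter also redrew the thinning. Between libraries the member median, -0.26, was -0.55 under TMM, -0.34 when CPM was averaged over cells and -0.30 when mitochondrial and ribosomal protein genes were set aside; Klf5 and Dppa5a changed sign to -0.14 each under TMM, which moves all genes together. Genes at 2 times the variation trend in the negative library were 2 in place of 5 at 5000 UMIs, a depth at which counting noise is larger. With endoderm-high set at 20 or more UMIs the member medians were -2.29 and -1.31, against -1.93 and -1.12 in the positive and negative library. The cell sets by UMI and mitochondrial range, the endoderm comparison with fewer than 5 other 2C UMIs and the division by other 2C genes, with or without cells of 5 or more endoderm UMIs, were added once values had been seen. The causes of these shifts were not tested beyond what their construction shows.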

Other observations

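Of 18 listed genes of the later, formative and primed pluripotent states, 12 were measured between the outermost Zscan4 classes, and 6 were lower by at least 2-fold and 3 higher, where 8.45% of all genes tested were lower and 11.7% higher by that much. The lower ones were Lefty2 (10.5 and 1.91 CPM in the classes with 0 and with 20 or more Zscan4 UMIs), Etv4 (27.0 and 9.13 CPM), Dnmt3b (73.5 and 27.0 CPM), Zic5 (13.2 and 4.88 CPM), Dusp6 (20.4 and 8.92 CPM) and Lefty1 (24.4 and 11.5 CPM). Higher were the Sox factors Sox3 (11 and 46.1 CPM) and Sox11 (19.1 and 71.4 CPM), and the POU factor Pou3f1 (10.9 and 26.3 CPM).

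Of the other marker lists, 4 of 6 measured endoderm genes were lower by at least 2-fold (8.45% of all genes): Gata6, Dab2, Pdgfra and Cubn, Gata6 at 70.7 and 11.5 CPM. Of 4 measured trophoblast genes 3 were lower (8.45% of all genes), Tfap2c (23.9 and 8.28 CPM) and the keratins Krt8 (40.2 and 15.1 CPM) and Krt18 (48.6 and 20.4 CPM). Thy1, at 7.10 and 15.7 CPM, was the 1 fibroblast-list gene measured. Among cell cycle genes, Aurka (61.1 and 150 CPM) was the 1 of 20 G2/M genes higher by at least 2-fold, a share below the 11.7% of all genes. Of 20 S phase genes, Ung and Gins2 were lower and Ccne2 (11 and 37.6 CPM), a cyclin of S phase entry, was higher, which are counts near or below the shares of all genes (8.45% lower and 11.7% higher).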
